A study of Mus musculus with 3 samples.

Results

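The 7 genes described are the chemokine receptor gene Cxcr3, the genes of its ligands Cxcl9, Cxcl10 and Cxcl11, the interferon gamma receptor subunits Ifngr1 and Ifngr2, and the transcription factor gene Irf1. They were chosen by symbol from the 31053 genes of the deposited count tables. Of the 7, 6 had a row and Cxcl11 was not analysed here. The cells were non-parenchymal liver cells, mainly the endothelial, stellate and immune cells left when hepatocytes are depleted, taken after perfusion and dissociation of the liver. The 3 libraries, 1 per group, came from female Balb\c mice injected orthotopically at 8 weeks of age. The control received PBS and was labelled 8 weeks old, the 4T1_day_4 library received 4T1 breast cancer cells for 4 days and was labelled 8 weeks, and the 4T1_day_21 library received the same cells for 21 days and was labelled 11 weeks. 4T1 is a transplantable mammary carcinoma line of BALB/c origin, so the mice carried an injected tumour line and not a tumour of their own. How many mice gave each library, and how long after PBS the control was taken, the labels do not say. Time after injection, age and library therefore cannot be told apart.

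Interferon gamma is made mainly by natural killer cells and activated T cells. It binds a receptor built from IFNGR1, which holds the ligand, and IFNGR2, which completes the signalling complex, and the kinases JAK1 and JAK2 then start signalling. The signal switches on IRF1, an activator of transcription, and induces the chemokines CXCL9, CXCL10 and CXCL11, which draw in T and natural killer cells that carry CXCR3. CXCL9 depends closely on interferon gamma, whereas CXCL10 also answers to type I interferon and to NF-kB. In the liver, sinusoidal endothelial cells, Kupffer cells, dendritic cells and stellate cells can all make these ligands.

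On the mm10 build, with GENCODE gene models, the ligand genes lay side by side on the minus strand of chromosome 5: Cxcl9 (ENSMUSG00000029417) at chr5:92321347-92328079, Cxcl10 (ENSMUSG00000034855) at chr5:92346638-92348889, and Cxcl11 at chr5:92359544-92365485. A gap of 18558 bases separated Cxcl9 from Cxcl10, and 10654 bases separated Cxcl10 from Cxcl11. Cxcr3 (ENSMUSG00000050232) lay at chrX:101731535-101734269 on the minus strand. The plus strand held Ifngr1 (ENSMUSG00000020009) at chr10:19591949-19610229, Ifngr2 (ENSMUSG00000022965) at chr16:91547072-91565623 and Irf1 (ENSMUSG00000018899) at chr11:53770014-53778374.

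The 250 bases before the start of 3 genes whose products are induced by the same receptor are shown. Whether these bases bear on the levels below was not tested. The sequences are from RefSeq on GRCm38.p6, written 5′ to 3′ along the gene, and capitals mark matches to 3 motifs searched on both strands. The motifs were the interferon gamma-activated site GAS (TTCNNNGAA), the interferon-stimulated response element ISRE (GAAANNGAAA) and the NF-kB site kB (GGGRNWYYCC). The windows are chr5:92328080-92328329 for Cxcl9, chr5:92348890-92349139 for Cxcl10, and chr11:53769764-53770013 for the first of 2 listed Irf1 starts.
Cxcl9: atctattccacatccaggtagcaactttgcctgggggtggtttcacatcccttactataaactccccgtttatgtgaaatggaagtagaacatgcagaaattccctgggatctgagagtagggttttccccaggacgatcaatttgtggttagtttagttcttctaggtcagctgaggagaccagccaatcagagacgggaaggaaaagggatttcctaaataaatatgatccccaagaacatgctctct
Cxcl10: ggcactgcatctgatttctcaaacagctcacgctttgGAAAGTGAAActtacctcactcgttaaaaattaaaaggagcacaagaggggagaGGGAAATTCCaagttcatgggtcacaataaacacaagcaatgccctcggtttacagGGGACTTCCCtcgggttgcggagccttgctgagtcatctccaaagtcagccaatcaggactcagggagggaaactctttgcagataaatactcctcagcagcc
Irf1: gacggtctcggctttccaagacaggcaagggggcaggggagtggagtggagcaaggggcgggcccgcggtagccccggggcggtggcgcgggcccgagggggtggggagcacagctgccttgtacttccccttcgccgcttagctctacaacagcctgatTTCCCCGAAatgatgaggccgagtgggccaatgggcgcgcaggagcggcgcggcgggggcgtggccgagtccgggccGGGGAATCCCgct
The Cxcl10 window held 1 ISRE (GAAAGTGAAA, bases -213 to -204 from the start) and 2 kB matches (GGGAAATTCC, -159 to -150, and GGGACTTCCC, -103 to -94). The Irf1 window held 1 GAS (TTCCCCGAA, -90 to -82) and a kB match read on both strands (GGGGAATCCC, -13 to -4). The Cxcl9 window held no exact match to the 3 patterns, nor did those of Cxcr3, Ifngr1 and the second Irf1 start. Sites that differ from the patterns by a base, or lie outside the window, were not searched for. The Ifngr2 window is not described, since the bases after its listed start were not found in a GENCODE transcript. Among 32851 promoter windows of equal length, 7.02% held a GAS, 2.98% an ISRE and 3.90% a kB match. A match describes the letters only.

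The control library held 27191082 UMIs (unique molecular identifiers, the tags that let each captured transcript be counted 1 time) in 6489 barcodes, the day 4 library 34833820 in 9175 and the day 21 library 51913215 in 12338. After filtering, 4694, 5410 and 9938 cells were kept. Pairs of libraries shared between 13 and 32 barcodes. Clustering gave 34 clusters, of which 25 were named by their markers into 14 classes, written here as X-like. The rest go by number, among them cluster 10 (led by Xcl1, Cxcr6, Klra5 and Cd160) and cluster 19 (led by Gzma, Cma1, Prf1, Eomes and Ncr1), 2 lymphocyte clusters with more T cell markers than any other class but none among their 10 leading genes. Day 21 cells were shallower, with a median of 2638 UMIs per endothelial-like cell against 5777 in the control and 5284.5 at day 4. The number of cells also differed: neutrophil-like cells numbered 54, 189 and 2461, and monocyte/macrophage-like cells 28, 22 and 1438, in control, day 4 and day 21.

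Levels below are in CPM, the usual scaling of counts to a fixed total, with the UMIs of a gene summed over a class in a library and divided by all UMIs of that class. Where 3 values stand in a row they are those of control, day 4 and day 21. Levels are not compared between genes. Differences are log2 ratios with 0.5 UMIs added to each sum. With 1 library per group there is no test: the 95% intervals cover counting error only, and leave out variation between mice and between cells. A difference is called past 2-fold where the ratio is 2 or more either way and the gene has 20 or more UMIs in the 2 libraries. Shares of cells with a UMI were taken in cells thinned to 1000 UMIs each, with the unthinned share beside them. Both tumour comparisons share the control library. Of 999 endothelial-like cells at day 21, 936 were in cluster 8 (led by Cnmd and Rasd1), while control and day 4 cells were in clusters 0, 12 and 23, and 251 of 322 stellate-like cells at day 21 were in cluster 20 (led by Cyr61 and Ankrd55). Day 21 values of these 2 classes are therefore values of those clusters. Of 723 B-like cells at day 21, 321 were in cluster 18 (led by Igll1 and Vpreb1), against 12 of 325 in the control. Cluster 9 held the others. All 54 neutrophil-like control cells were in cluster 3, while 1305 of 2461 at day 21 were in cluster 4 (led by Stfa3). Of 1438 monocyte/macrophage-like cells at day 21, 950 were in cluster 6, led by Bex6, Gria3 and Muc13. In the control 21 of 28 were in cluster 13, led by Tppp3 and Vcan.

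**Figure D1:**
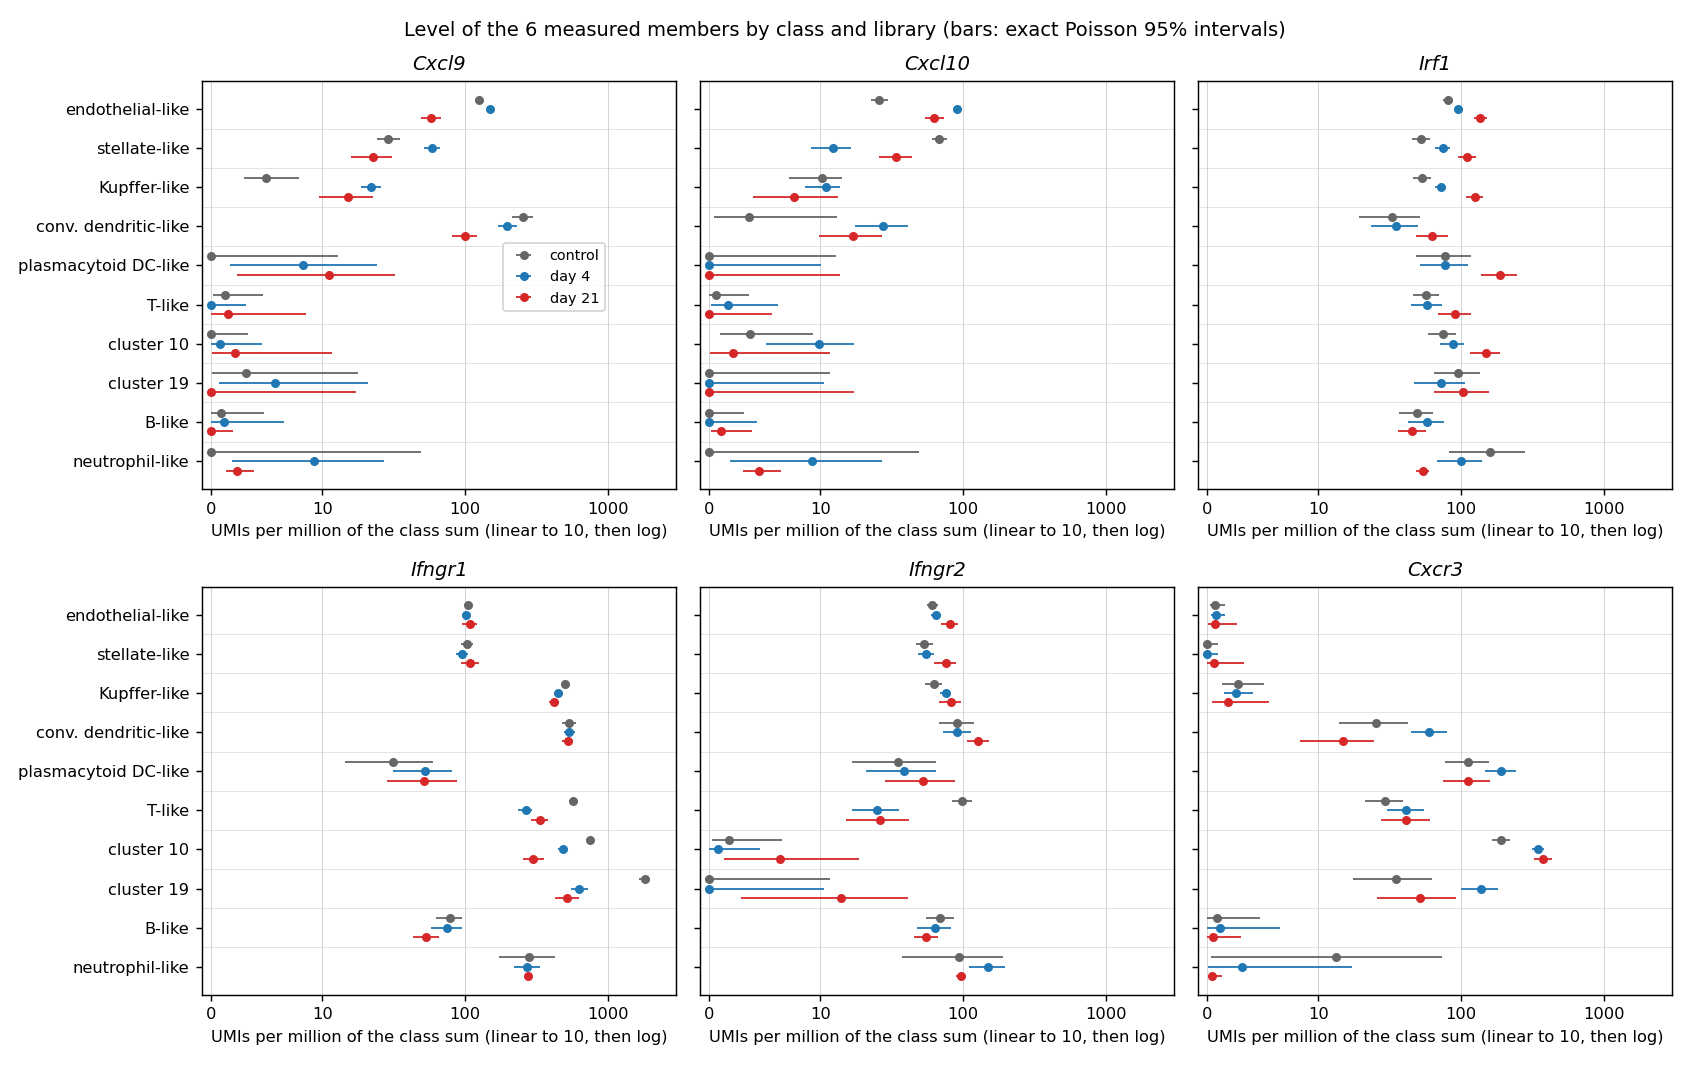
Level of each measured gene (x axis, CPM of the class sum, linear to 10 and then logarithmic) in 10 classes or clusters; points are libraries (grey control, blue day 4, red day 21) and bars exact Poisson 95% intervals. Among these 10, Cxcl9 was highest in conventional dendritic-like and then endothelial-like cells, and Cxcr3 in cluster 10. Without the highest cell of each library dendritic-like Cxcl9 was 35.1, 103 and 48.1 CPM, against 111, 140 and 44.6 in endothelial-like cells. Cxcl10 was highest in stellate-like cells in the control and in endothelial-like cells at day 4 and day 21. Of the control's 269 stellate-like Cxcl10 UMIs, 232 lay in 5 cells. Ifngr2 had at most 3 UMIs in clusters 10 and 19.

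Cxcl9 and Cxcl10 differed in opposite directions in endothelial-like cells of the day 21 library: Cxcl9 was lower and Cxcl10 higher than in the control. At day 4 Cxcl10 was past 2-fold higher while Cxcl9 was within 2-fold. In this class 1 of 5 measured genes of the set was past 2-fold at day 4, where 2.92% of 11570 genes were, and 2 of 5 at day 21, where 12.8% of 11072 were.

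Cxcl9, the ligand most closely tied to interferon gamma, had 1027, 1322 and 154 UMIs in endothelial-like cells, or 125, 149.8 and 57.6 CPM. The control and day 4 libraries were close and the day 21 library was the lowest. The log2 ratio was 0.26 at day 4 (0.14 to 0.38) and -1.12 at day 21 (-1.38 to -0.88), which is 2.17-fold lower. Cells with at least 1 Cxcl9 UMI made up 26.8, 26.45 and 7.11% of the class, and 7.77, 9.56 and 2.99% after thinning. The day 21 ratio was -0.67 in thinned cells, within 2-fold, and past 2-fold in the other 10 of 11 alternatives.

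Cxcl9 was held by few cells. The 140 of 1393 endothelial-like control cells with most Cxcl9 carried 72.8% of its UMIs, and the top 166 of 1660 at day 4 carried 74.05%. At day 21 only 71 of 999 cells had a Cxcl9 UMI, fewer than the 100 cells of an equal share of the class. Those 100 cells hold all UMIs however these are spread, so day 21 cannot be compared in this way. The highest single cell carried 118, 88 and 35 UMIs. Without the 5 highest cells of each library, an alternative added after seeing the data, the levels were 100.7, 124 and 30.5 CPM. The day 21 library was again the lowest, with a log2 ratio of -1.72. Among clusters, Cxcl9 went from 122.5 CPM in the control to 161.5 at day 4 in cluster 0 and from 138 to 103 in cluster 12, whose leading genes Wnt2 and Wnt9b are made by central vein endothelium. It was 60.1 CPM in cluster 8 at day 21.

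In stellate-like cells, the vitamin A-storing pericytes of the liver, Cxcl9 had 115, 232 and 38 UMIs (29.1, 58.6 and 22.5 CPM). The day 4 library was the highest. The log2 ratio was 1.01 at day 4 (0.68 to 1.35), which was past 2-fold in 5 of 11 alternatives, and -0.35 at day 21 (-0.94 to 0.17). In this class 2 of 5 genes were past 2-fold at day 4, Cxcl9 and Cxcl10, where 3.0% of all genes were. At day 21 it was 1 of 5, Irf1, where 12.1% of all genes were.

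In Kupffer-like cells, macrophages that reside in the sinusoids, Cxcl9 had 18, 152 and 24 UMIs (4.99, 22.0 and 15.2 CPM). The control was the lowest of the 3 libraries. The day 4 ratio was 2.11 (1.43 to 2.93) and past 2-fold in all 11 alternatives, from 1.07 to 2.42. At day 21 it was 1.60 (0.67 to 2.58), but all 24 UMIs lay in 4 of 679 cells, 16 of them in 1 cell, and without the 5 highest cells of each library 0 UMIs at day 21 stood against 6 in the control. Here 1 of 6 measured genes of the set was past 2-fold at day 4, where 4.26% of all genes were, and 2 of 5 at day 21, where 11.9% were.

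Conventional dendritic-like cells, antigen-presenting cells led here by Xcr1, Itgax and class II genes, had the highest Cxcl9 level of any class with 50 or more cells. They held 139, 165 and 100 UMIs (253, 197.5 and 99.8 CPM) in 4, 13 and 11 cells. Of these UMIs, 120, 80 and 52 lay in a single cell. Without the highest cell of each library the levels were 35.1, 103 and 48.1 CPM, against 111, 140 and 44.6 in endothelial-like cells. The rank of the 2 classes thus turned in the control and at day 4. The dendritic-like ratio was -0.36 at day 4. The day 21 ratio of -1.34 (-1.73 to -0.96) turned to 0.43 without the highest cell of each library. In this class 2 of 6 genes were past 2-fold at day 4, where 7.52% of all genes were, and 1 of 5 at day 21, where 18.3% were.

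Cluster 1 held shallow cells with 10 endothelial markers but none among their leading genes. Clusters 8 and 12, which were named endothelial-like, had none there either. Cxcl9 was also present in cluster 1, at 114, 181 and 41.25 CPM. In the control its interval there (95.3 to 136 CPM) overlapped that of the endothelial-like class (118 to 133), and its 5 highest cells held 24.4% of the UMIs. The log2 ratios were 0.66 and -1.39, the latter on 8 UMIs at day 21. Cxcl10 there stood at 24.3, 33.9 and 25.8 CPM, within 2-fold. Of the 5 measured genes of the set, 1 was past 2-fold in cluster 1 at day 4, Irf1, where 4.45% of all genes were, and 2 at day 21, Cxcl9 and Irf1, where 17.4% were. Free RNA in droplets can give UMIs to cells that do not express a gene. B-like cells, with 1, 1 and 0 Cxcl9 UMIs in 325, 220 and 723 cells at median depths of 2895, 2977.5 and 1540 UMIs, gave the background for such counts.

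Cxcl10 had 212, 803 and 168 UMIs in endothelial-like cells, or 25.9, 91.0 and 62.9 CPM. The control was the lowest and day 4 the highest. The log2 ratio was 1.81 at day 4 (1.59 to 2.04), or 3.51-fold, and past 2-fold in all 11 alternatives. At day 21 it was 1.28 (0.98 to 1.58), or 2.43-fold, and past 2-fold in 8 of 11. It was 0.53 at day 21 with a stricter cell filter, 0.60 without the 5 highest cells and 0.98 without the highest cell, which ended the call.

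The share of endothelial-like cells with a Cxcl10 UMI differed less than the level did. It was 7.39, 10.4 and 6.71% unthinned, and 2.397, 3.615 and 3.40% thinned. The highest single cell held 10, 177 and 38 UMIs. Without the 5 highest cells the levels were 20.2, 47.9 and 30.5 CPM, so the control stayed the lowest and the day 4 ratio was 1.24. In cluster 0 Cxcl10 went from 27.8 CPM in the control to 102.6 at day 4, in cluster 12 from 18.0 to 50.6, and in cluster 23, led by Lyve1 and Dpf3, from 28.7 to 31.3. It was 66.15 CPM in cluster 8 at day 21.

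Stellate-like cells held 269, 49 and 57 Cxcl10 UMIs (68.0, 12.4 and 33.8 CPM), with the control the highest. The log2 ratio was -2.45 at day 4 (-2.93 to -2.02) and -0.998 at day 21, just within 2-fold. The control value rested on few cells: 105 of the 269 UMIs lay in 1 cell and 232 in 5. Without the 5 highest cells the levels were 9.51, 8.201 and 17.0 CPM and the ratios -0.21 and 0.84, so the call at day 4 ended and the direction at day 21 turned. Cells with a Cxcl10 UMI made up 5.70, 5.70 and 7.45% of the class, and 0.935, 1.54 and 2.01% after thinning.

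In conventional dendritic-like cells Cxcl10 had 2, 23 and 17 UMIs (3.635, 27.5 and 17.0 CPM), and the control was the lowest. The ratio of 2.63 at day 4 (0.90 to 6.05) rested on 2 UMIs in the control and on few cells at day 4, where 20 of the 23 UMIs lay in 5 cells and 11 in 1. Without the 5 highest cells of each library 3 UMIs at day 4 stood against 0, too few for a ratio. In Kupffer-like cells Cxcl10 had 37, 76 and 12 UMIs (10.25, 11.0 and 7.60 CPM), and its intervals in the 3 libraries overlapped. B-like cells held 0, 0 and 2 Cxcl10 UMIs, and neutrophil-like cells 0, 3 and 29, of which 21 lay in 1 cell.

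**Figure D2:**
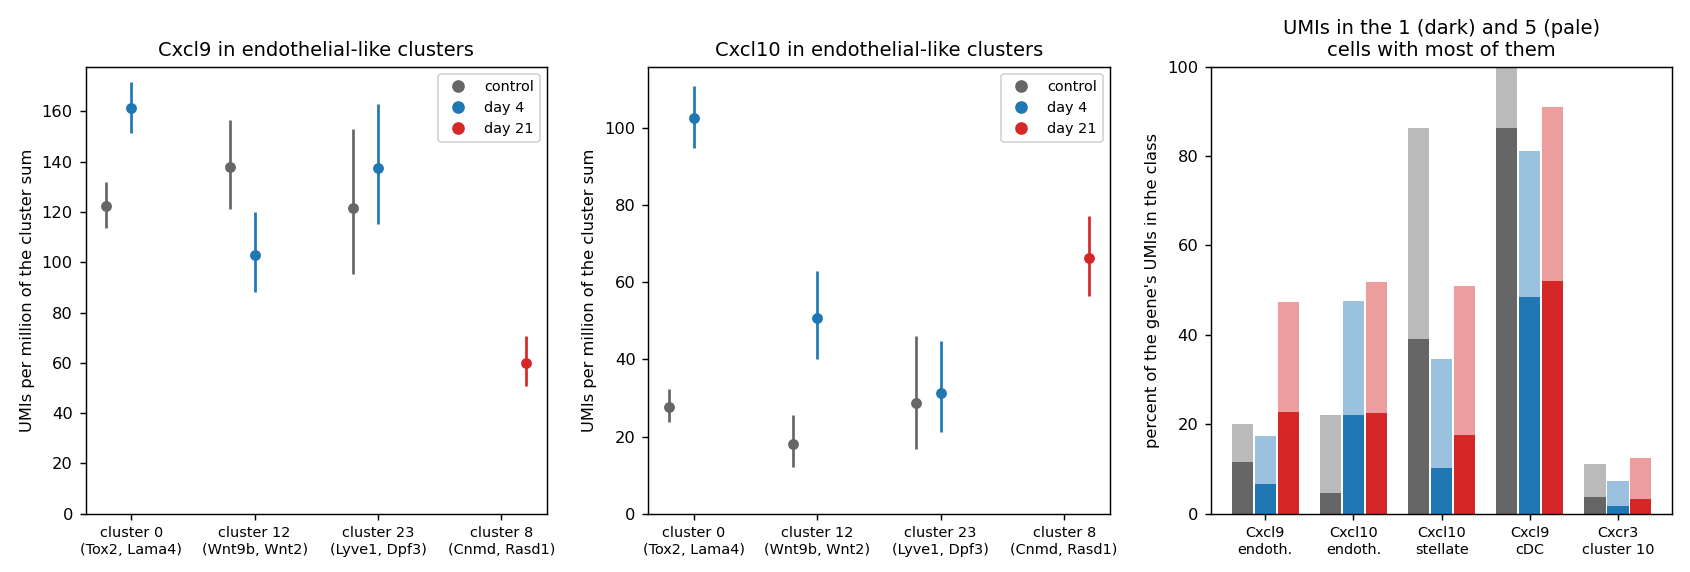
Left and centre: Cxcl9 and Cxcl10 levels (y axis, CPM of the cluster sum) in endothelial-like clusters with 50 or more cells, by library, with exact Poisson 95% intervals. Right: percent of a gene's UMIs in the 1 (dark) and 5 (pale) cells with most of them, for 5 genes and classes, each with bars for control, day 4 and day 21. Cxcl10 was higher at day 4 in clusters 0 and 12 and near its control level in cluster 23, and the 5 highest cells held most of the control's stellate-like Cxcl10.

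Endothelial-like cells with Cxcl9 held Cxcl10 more often than the others did. In thinned cells 7, 15 and 4 cells had both ligands, where the product of the 2 shares would give 2.56, 5.64 and 0.987. Cxcl10 was found in 6.54, 9.62 and 13.8% of cells with Cxcl9 and in 2.05, 2.98 and 3.08% of those without. Cxcl9 and Irf1 shared 9, 13 and 7 cells, against products of 7.38, 14.5 and 3.71. Cell counts are small and cells of a library are not replicates, so these are descriptions.

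The shares of ligand UMIs held by each class differed between libraries. Endothelial-like cells, 29.7, 30.7 and 10.05% of kept cells, held 66.3, 59.5 and 36.8% of all Cxcl9 UMIs. Conventional dendritic-like cells, 1.39, 1.94 and 2.36% of cells, held 8.97, 7.42 and 23.9%. For Cxcl10, stellate-like cells held 46.9, 4.46 and 13.04% and endothelial-like cells 36.9, 73.1 and 38.4%. Few cells weigh on these shares. In the control 232 of the 269 stellate-like Cxcl10 UMIs lay in 5 cells. Single cells held 120 of 139, 80 of 165 and 52 of 100 dendritic-like Cxcl9 UMIs. Cells named monocyte/macrophage-like, most of them in cluster 6, held 17.6% of Cxcl10 UMIs at day 21 at a low level of 5.97 CPM. Over whole libraries, all barcodes included, Cxcl9 stood at 61.05, 71.7 and 9.32 CPM and Cxcl10 at 21.7, 36.3 and 9.59. In such sums fewer cells of a class and less RNA per cell cannot be told apart.

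**Figure D3:**
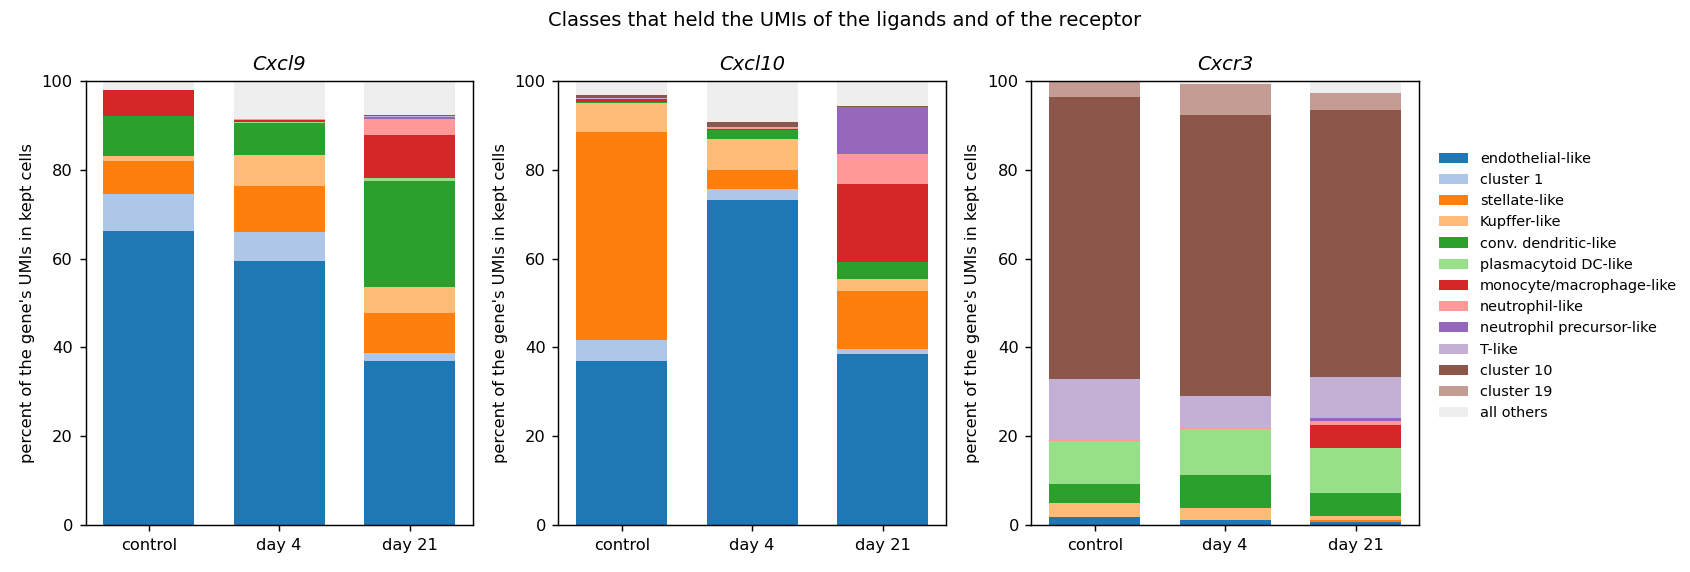
Share of each gene's UMIs in kept cells (y axis, percent) by class or cluster, stacked, for Cxcl9, Cxcl10 and Cxcr3 in the 3 libraries (x axis). Endothelial-like cells held most Cxcl9 in the control and at day 4, and cluster 10 most Cxcr3 in each library. Stellate-like cells held the largest part of Cxcl10 in the control, with 232 of their 269 UMIs in 5 cells.

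Cxcr3, the receptor, was highest in cluster 10 in all 3 libraries, with 208, 420 and 177 UMIs (190.0, 345 and 374 CPM). The control was the lowest, and its interval (165 to 218) did not overlap those of day 4 (313 to 380) or day 21 (321 to 434). The log2 ratios of 0.86 at day 4 (0.62 to 1.11) and 0.98 at day 21 (0.68 to 1.27), or 1.81- and 1.97-fold, did not pass 2-fold, and at day 21 ranged from 0.77 to 1.08 over 9 alternatives. Cells with a Cxcr3 UMI made up 18.9, 28.8 and 28.2% of thinned cells, and 48.6, 68.3 and 45.5% unthinned, at median depths of 3752.5, 4012 and 1714 UMIs. In this cluster Cxcr3 was spread over many cells: leaving out the 5 highest cells moved the ratios only to 0.93 and 0.98. Cluster 10 held 63.4, 63.25 and 60.2% of all Cxcr3 UMIs with 6.14, 5.31 and 2.66% of cells.

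Cells were split by their own UMIs into those with Cd4 only, those with Cd8a or Cd8b1 but no Cd4, and those with none of these. Cluster 10 cells with Cd4 had Cxcr3 at 250.9, 412 and 213.5 CPM (59, 61 and 28 cells). Those with none of the genes had 174, 343 and 405 CPM (211, 200 and 215 cells). The cells with none of the genes made up most of the cluster, and their Cxcr3 was lowest in the control. This split used unthinned cells, so cells with missed UMIs fall among those with none. Median depth of the latter was 3597, 3985.5 and 1687 UMIs. The subsets may therefore differ in make-up between libraries, here and where the split is used below.

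Plasmacytoid dendritic-like cells, known as makers of type I interferon, were next, with 32, 69 and 30 Cxcr3 UMIs (112, 189 and 111 CPM) in 41, 55 and 79 cells. Day 4 was the highest, and as the control held under 50 cells no ratio was taken against it. Their part of all Cxcr3 UMIs was 9.76, 10.4 and 10.2%. In conventional dendritic-like cells Cxcr3 had 14, 50 and 15 UMIs (25.45, 59.8 and 14.97 CPM), again highest at day 4, with ratios of 1.20 (0.36 to 2.20) and -0.77. T-like cells (cluster 5, led by Dapl1, Tcf7 and Lef1) had 45, 48 and 27 UMIs (29.1, 41.1 and 41.4 CPM), and their intervals overlapped.

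Cluster 19, whose leading genes Gzma, Prf1 and Ncr1 serve natural killer cytotoxicity, had 11, 47 and 11 Cxcr3 UMIs (34.9, 136 and 51.6 CPM). Day 4 was the highest, with a log2 ratio of 1.92 (95% interval 0.998 to 3.06). That value rested on few cells: 30 of the 47 UMIs lay in 9 cells with Cd4 UMIs and a median depth of 10870 UMIs, and in thinned cells the ratio was -1.78. Kupffer-like cells held 10, 18 and 3 Cxcr3 UMIs, stellate-like cells 0, 0 and 1 and endothelial-like cells 6, 7 and 2.

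Ifng, the gene of the cytokine that drives the ligands, was found in the same cluster as Cxcr3. Cluster 10 held 75, 137 and 75 of the 97, 179 and 115 Ifng UMIs of whole libraries, at 68.5, 113 and 159 CPM. The control was the lowest and day 21 the highest, with ratios of 0.71 (0.30 to 1.14) and 1.21 (0.73 to 1.69). Cluster 19 held 10, 16 and 16 UMIs (31.7, 46.4 and 75.1 CPM), T-like cells 7, 6 and 2, and Kupffer-like and both dendritic-like classes 0. In thinned cells of cluster 10, Cxcr3 and Ifng were found together in 3, 15 and 8 cells, against products of the shares of 3.21, 10.65 and 9.315.

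Ifngr1, the ligand-binding subunit, was lower in the tumour libraries in 3 lymphocyte groups and near its control level in endothelial-like, stellate-like and conventional dendritic-like cells. Cluster 19 had the highest control level, with 567, 217 and 110 UMIs (1798, 629 and 516 CPM), and the control interval lay far above the other 2. The log2 ratio was -1.51 at day 4 (-1.75 to -1.29) and -1.80 at day 21 (-2.11 to -1.50), past 2-fold in 7 and 8 of 8 alternatives. The cells with an Ifngr1 UMI made up 83.7, 56.2 and 37.1% thinned, and 96.9, 83.6 and 61.2% unthinned. In its cells without Cd4, Cd8a or Cd8b1 UMIs the levels were 2064, 875 and 575 CPM. In this cluster 2 of 3 measured genes of the set, Ifngr1 and Cxcr3, were past 2-fold at day 4, where 9.90% of all genes were, and 1 of 3 at day 21, where 11.6% were.

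Cluster 10 held 816, 590 and 142 Ifngr1 UMIs (745, 485 and 300.2 CPM), highest in the control and lowest at day 21. The ratios were -0.62 (within 2-fold) and -1.31 (-1.58 to -1.05), the latter past 2-fold in all 9 alternatives, with 47.0, 40.35 and 22.98% of thinned cells positive. None of the 3 measured genes was past 2-fold here at day 4, where 5.18% of all genes were. At day 21 it was 2 of 3, Ifngr1 lower and Irf1 higher, where 9.76% were.

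T-like cells held 876, 309 and 218 Ifngr1 UMIs (567, 264 and 334 CPM), with the control the highest. The ratios were -1.10 at day 4 (-1.29 to -0.91), past 2-fold in 6 of 11 alternatives, and -0.76 at day 21 (-0.985 to -0.55). The control was the highest in cells with Cd8a or Cd8b1 (652, 394 and 461 CPM), in those with Cd4 (543, 225 and 318) and in those with none of these (517, 229.5 and 284.5).

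In 4 classes outside lymphocytes Ifngr1 was close between libraries. It stood at 105, 101 and 107 CPM in endothelial-like, 103, 95.2 and 108 in stellate-like, 536, 536 and 521 in conventional dendritic-like and 501, 443 and 420 in Kupffer-like cells. The Kupffer-like ratios were -0.18 and -0.25. At day 21 the highest levels were those of conventional dendritic-like cells and cluster 19, whose intervals (477 to 568 and 424 to 622 CPM) overlapped. Cells named monocyte/macrophage-like had 692, 630 and 273 CPM, but the control and day 4 libraries held under 50 of them and no ratio was taken. Most of them at day 21 were in cluster 6, where 1 of the 10 leading genes was a marker of the class. The 3 values are therefore of unlike clusters, and the name is uncertain at day 21. At day 21 they held 37.4% of all Ifngr1 UMIs. In cluster 1 Ifngr1 stood at 56.7, 69.0 and 103.1 CPM, within 2-fold and on 20 UMIs at day 21. B-like cells had 77.7, 75.02 and 53.5 CPM, with ratios of -0.05 and -0.54 (-0.96 to -0.11). Within their cluster 9 alone the day 21 ratio was -0.36 (-0.92 to 0.16).

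Ifngr2, the signalling subunit, was also lower in T-like cells of the tumour libraries. They held 152, 29 and 17 UMIs (98.4, 24.8 and 26.05 CPM), and the control interval (83.4 to 115) lay above the other 2. The log2 ratios were -1.97 (-2.61 to -1.41) and -1.88 (-2.735 to -1.19), past 2-fold in all 11 alternatives at both times. Thinned cells with an Ifngr2 UMI made up 9.36, 3.19 and 2.89%. The control was the highest in each subset, with 48.65, 14.3 and 6.31 CPM in cells with Cd8a or Cd8b1, 109, 27.8 and 24.0 with Cd4, and 116, 29.2 and 34.4 with none of these. In T-like cells 2 of 4 measured genes of the set were past 2-fold at day 4, both receptor subunits, where 6.34% of all genes were, and 1 of 4 at day 21, Ifngr2, where 12.3% were.

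Clusters 10 and 19 held almost no Ifngr2, with 2, 1 and 3 UMIs and 0, 0 and 3 UMIs, although both had Ifngr1. A count of 0 in cluster 19 allows up to 9.51 CPM in the control and 8.7 at day 4. In the control T-like, neutrophil-like and conventional dendritic-like cells had the highest Ifngr2 levels, with overlapping intervals. In the classes that follow Ifngr2 was within 2-fold of the control. It stood at 60.9, 64.9 and 80.8 CPM in endothelial-like cells (0.09 and 0.41), 53.6, 55.05 and 75.3 in stellate-like, 62.3, 75.5 and 81.7 in Kupffer-like and 90.9, 90.95 and 128 in conventional dendritic-like cells. The day 21 library was the highest in each of these 4 classes. B-like cells had 69.2, 63.3 and 55.1 CPM and cluster 1 had 61.2, 66.5 and 77.35, also within 2-fold.

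The NF-kB and immediate early genes respond quickly to cytokines and to cell handling. At day 4 their median was above 0 in cluster 10 and below 0 in the other classes given here. In T-like cells the median log2 ratio was -0.70 over 18 measured genes, against 0.09 over all genes. There 5 of the 18 were above 0, 1 was past 2-fold higher and 6 past 2-fold lower, where 3.87 and 2.47% of all genes were, with Tnfaip3 at 315, 99.25 and 141 CPM and Jun at 95.8, 21.4 and 39.8. At day 21 its median was 0.22 over 19 genes. At day 4 the median was -0.81 over 13 genes in cluster 19, -0.43 over 18 in B-like cells, -0.35 over 22 in Kupffer-like, -0.37 over 22 in endothelial-like and -0.45 over 22 in stellate-like cells. In cluster 10 it was 0.10 at day 4 and 0.465 at day 21 over 20. The part of this list in the receptor values was not tested.

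**Figure D4:**
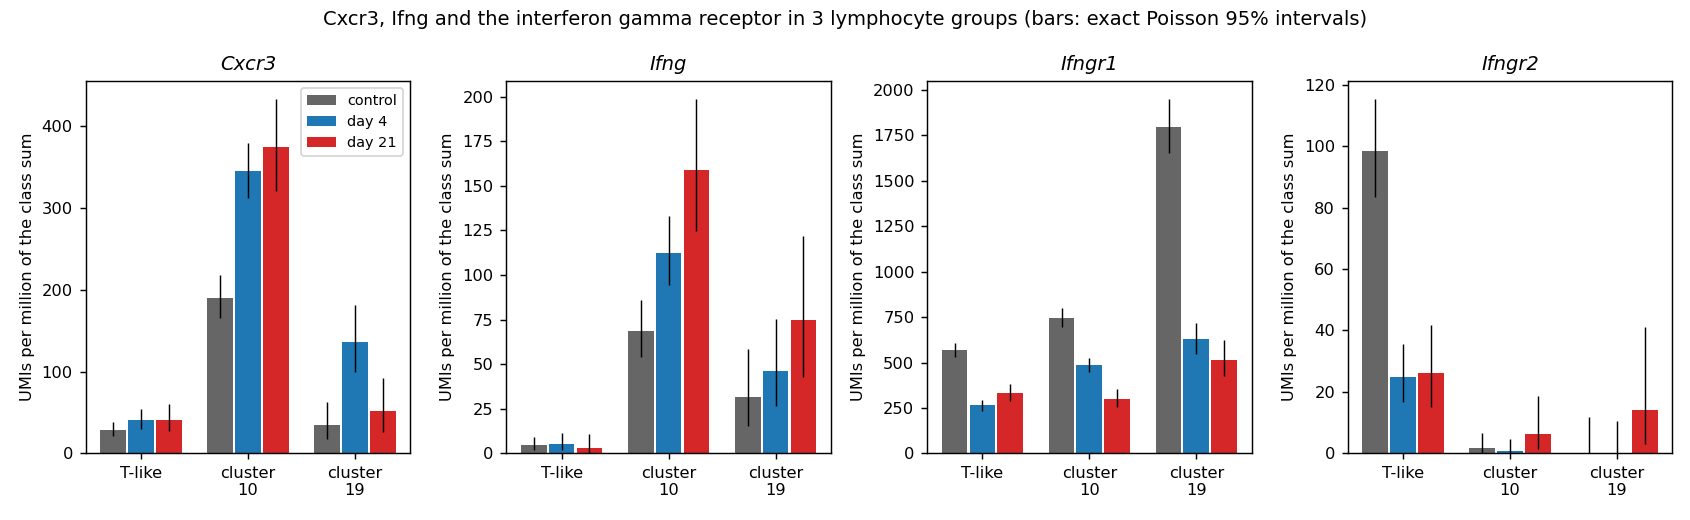
Levels of Cxcr3, Ifng, Ifngr1 and Ifngr2 (y axes, CPM of the class sum, each from 0) in T-like cells and clusters 10 and 19; bars are libraries and lines exact Poisson 95% intervals. Cxcr3 and Ifng were lowest in the control in cluster 10, Ifngr1 was highest in the control in all 3 groups, and Ifngr2 was near 0 in clusters 10 and 19.

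Irf1 is the gene of a transcription factor induced by interferon gamma. At day 21 it was higher than in the control in endothelial-like, stellate-like and Kupffer-like cells and in cluster 10. It was lower in neutrophil-like cells as a class, but not past 2-fold within their cluster 3. Endothelial-like cells held 659, 843 and 364 UMIs (80.5, 95.5 and 136 CPM), with ratios of 0.25 and 0.76 (0.57 to 0.95). Stellate-like cells held 207, 294 and 186 (52.3, 74.2 and 110.3 CPM), with ratios of 0.50 and 1.08 (0.78 to 1.37). Kupffer-like cells held 191, 498 and 196 (52.9, 72.1 and 124 CPM), with ratios of 0.44 and 1.23 (0.94 to 1.53). In these 3 classes the levels stood in the order control, day 4, day 21. The day 21 ratio was past 2-fold in 9 of 11 alternatives in the stellate-like and in the Kupffer-like class.

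In the control the Irf1 levels of cluster 19, endothelial-like cells and cluster 10 had overlapping intervals, and conventional dendritic-like cells were lower than these 3. Thinned cells gave the same order of libraries, with an Irf1 UMI in 6.90, 9.31 and 12.8% of endothelial-like, 4.21, 6.76 and 10.7% of stellate-like and 5.95, 7.62 and 11.0% of Kupffer-like cells. Unthinned shares were 34.5, 36.3 and 27.2%, 28.5, 34.6 and 39.4%, and 26.0, 33.1 and 21.9%. Irf1 responds to NF-kB as well as to interferon gamma. The NF-kB and immediate early list at day 21 had a median of 0.99 in endothelial-like cells, 0.89 in stellate-like cells and -0.00 in Kupffer-like cells, over 22 genes each, and its part in the Irf1 values was not tested.

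Cluster 10 held 81, 106 and 70 Irf1 UMIs (74.0, 87.1 and 148 CPM), with a day 21 ratio of 1.002 (0.52 to 1.48) that was past 2-fold in 3 of 9 alternatives. T-like cells had 57.0, 57.3 and 90.4 CPM, conventional dendritic-like cells 32.7, 34.7 and 62.9, and plasmacytoid dendritic-like cells 76.7, 76.85 and 185. The day 21 library was the highest in all 3. B-like cells stood at 48.7, 57.4 and 45.4 CPM with overlapping intervals. Within their cluster 9 alone the Irf1 ratios were 0.63 (0.006 to 1.26) and 0.74 (0.12 to 1.36). Cluster 19 had 95.1, 72.5 and 103.2 CPM, also with overlapping intervals. In cluster 1 Irf1 had 19.8, 42.7 and 51.6 CPM.

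Neutrophil-like cells held 12, 32 and 346 Irf1 UMIs (159, 98.9 and 53.9 CPM), with the control the highest on 12 UMIs in 54 cells. The day 21 ratio was -1.62 (-2.38 to -0.59), where 57.1% of all genes of this class were past 2-fold (15.6% at day 4). With the ratio taken relative to the median gene, which stood at -0.87 in this class, it was -0.75. On that scale Ifngr1, at 278, 272 and 276 CPM, and Ifngr2, at 92.7, 148 and 96.1, both went from near 0 to 0.82. Within cluster 3, which held all control cells of the class, the unscaled day 21 ratio of Irf1 was -0.62 (-1.41 to 0.42). There Ifngr1 was at 0.61 (0.02 to 1.34) and Ifngr2 at 0.40 (-0.58 to 1.83). In cluster 16, cells led by hepatocyte genes such as Fabp1 and Gnmt, Ifngr1 had 8, 9 and 20 UMIs, with a day 21 ratio of 1.78 (0.59 to 3.22) and 16 of the 20 UMIs in 5 cells, and Cxcl9 2, 33 and 22, in 2, 9 and 4 cells. Cxcl9 at day 4, and Cxcl9 and Ifngr1 at day 21, were past 2-fold there, where 9.70 and 20.6% of all genes were. They reached 20 UMIs only through the tumour libraries, so these calls were close to fixed by the minimum. The 5 highest cells held 29 of the 33 and all of the 22 Cxcl9 UMIs.

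**Figure D5:**
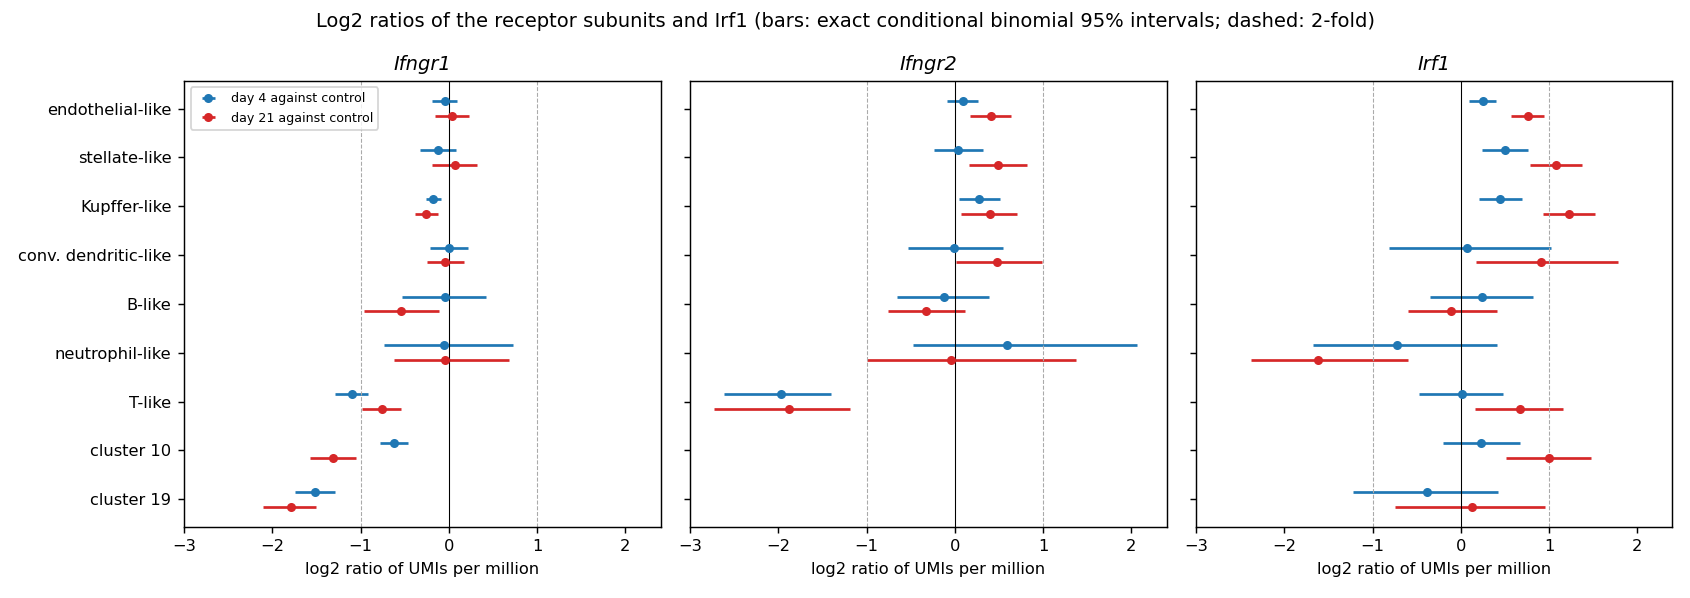
Log2 ratios of Ifngr1, Ifngr2 and Irf1 (x axis) at day 4 (blue) and day 21 (red) against the control, by class or cluster, with exact conditional binomial 95% intervals; dashed lines mark 2-fold, and pairs with under 20 UMIs are left out. Ifngr1 and Ifngr2 lay left of 0 in the lymphocyte groups, and Irf1 lay right of 0 at day 21 in endothelial-like, stellate-like and Kupffer-like cells.

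Lists of other genes of the pathway were described by how many measured genes lay above 0 and how many were past 2-fold. In endothelial-like cells at day 4, 12 of 16 genes of receptor signalling were above 0 and none was past 2-fold, with a median of 0.14 against 0.04 over all genes. Stat2 was at 0.70, Irf2 at 0.43, Irf8 at -0.30 and the feedback inhibitor Socs1 at -0.64. At day 21, 14 of 16 were above 0 and 4 past 2-fold higher, where 7.82% of all genes were, with a median of 0.43 against 0.10. Socs3, a feedback inhibitor of cytokine receptors, went from 62.0 to 422.5 CPM (2.77) and Jak2 from 60.4 to 150.1 (1.31).

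Interferon gamma target genes in endothelial-like cells were above 0 in 24 of 28 at day 4 (median 0.14) and in 7 of 27 at day 21 (median -0.185). At day 21 the checkpoint ligand gene Cd274 was at 2.24 and the serpin gene Serpina3g at 1.73, while the GTPase genes Gbp3 and Gbp9 were at -0.82 and -0.84. Type I interferon genes, a set that Cxcl10 partly shares, were above 0 in 18 of 18 at day 4 with none past 2-fold (median 0.47), led by Ifit1 at 0.94 and Isg15 at 0.67. At day 21 only 2 of 16 were above 0 and 6 were past 2-fold lower, where 4.95% of all genes were (median -0.81 against 0.10), with Ifit3 at -2.53 and Rsad2 at -1.67. Cxcl10, at 1.28, had the other sign in the same cells.

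Of the other chemokine partners of CXCR3 cells in the endothelial-like class, 9 of 14 were past 2-fold higher and 1 lower at day 21, where 7.82 and 4.95% of all genes were, with Ccl3, which had 0 UMIs in the control, among the former. Ackr3, a scavenger receptor that takes up CXCL11 and CXCL12, went from 8.91 CPM in the control to 16.4 at day 4 and 70.35 at day 21 (0.88 and 2.97). The adhesion molecule gene Vcam1 stood at 63.25, 35.9 and 193 CPM. Cxcl12 was at -1.13 at day 21. Il15ra, which presents IL-15 to lymphocytes, was at 31.0, 13.9 and 5.24 CPM (-1.15 and -2.52).

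In Kupffer-like cells 27 of 28 targets were above 0 at day 4 and 18 of 28 at day 21, with medians of 0.24 and 0.29. The interferon-induced GTPase genes Irgm2 (14.1, 42.8 and 58.3 CPM) and Iigp1 (36.8, 77.6 and 98.2) were past 2-fold higher at both times. Psmb8, an immunoproteasome subunit, was at -0.76 at day 21. Type I interferon genes were above 0 in 16 of 18 at day 4 and in 4 of 18 at day 21, when Ifit3 was at -1.39. Jak2 was at -0.69 and -0.67. In stellate-like cells 22 and then 13 of 27 targets were above 0, and Serpina3g (45.25, 39.9 and 282 CPM) and Socs3 (2.56) were past 2-fold higher at day 21.

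In cluster 10, where Cxcr3 was highest, the producers and inducers of interferon gamma were past 2-fold higher in 1 of 10 at day 4, where 3.28% of all genes were, and in 4 of 10 at day 21, Ifng among them, where 5.625% were. Their medians of 0.12 and 0.11 stood against 0.04 and 0.06 over all genes. Tbx21, the transcription factor that drives Ifng and Cxcr3 in T helper 1 and natural killer cells, stood at 26.5, 67.4 and 84.6 CPM (1.33 and 1.67), and Il18r1 was at 1.48 at day 21. The chemokine gene Ccl4 stood at 36.5, 468 and 156.5 CPM (3.66 and 2.09), and Ccl3 was at 2.52 at day 4. In T-like cells, where both receptor subunits were lower, 13 of 15 genes of receptor signalling were above 0 at day 21 and 5 past 2-fold higher, where 8.98% of all genes were, with a median of 0.60 against 0.20. These included the inhibitory phosphatase gene Ptpn6 (36.9, 102.7 and 102.7 CPM) and Socs1 (1.40).

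The genes most like each member were found by Pearson's r of log2(CPM + 1) over 41 pairs of class and library, among 10846 genes. The pairs share libraries, depth and clustering, so r is a description. For Cxcl9 these were Cdc42bpb (0.856), Cd36 (0.836) and Pkdcc (0.836), for Cxcl10 Cpne8 (0.82), Smad6 (0.819) and Trim47 (0.819), and for Cxcr3 Cd8a (0.887), Kbtbd11 (0.887) and Klrk1 (0.856). For Ifngr1 they were Sh3bp1 (0.852), Mkl1 (0.83) and Prex1 (0.81), for Ifngr2 Sgk3 (0.898), Rassf3 (0.814) and Tmem50b (0.754), and for Irf1 Lnpep (0.868), Kdm2a (0.867) and Slc44a2 (0.849). Cxcl9 and Cxcl10 had r of 0.636 with each other. Cxcr3 had r of 0.566 with Ifngr1 and -0.513 with Ifngr2.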

How the data were processed

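Raw UMI counts per gene and barcode were deposited by the authors in 3 matrices, per the file headers from Cell Ranger 3.1.0, on the mm10 build (submitters' processing notes). Barcodes under 200 genes or over 20% mitochondrial UMIs were removed, as were doublets called by Scrublet (expected 0.8% per 1000 barcodes; 40, 99 and 732 called). Counts scaled to 10000 per cell, 2000 variable genes, 30 components, 15 neighbours and Leiden resolution 1 gave the clusters, named from 20 marker lists. A name needed at least 3 detected markers, and more than any other class. This was not the only condition. Among clusters left unnamed, 10 and 19 had markers of other classes and none of their own among the 10 leading genes. The shallow clusters 1 and 16 had no class markers there. Clusters 8, 12 and 20 had none there either, but were named. Raw counts were then summed per class and library. Intervals are exact Poisson for levels, Clopper-Pearson for shares and conditional binomial for ratios, at 95%. Ratios needed 50 cells in both libraries.

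The genes and the 6 pathway lists were chosen with earlier results of these data known. The rule for named genes was the 7 genes in each class that could be compared, and the 3 genes most like each; Cxcl11 had no values, and pairs with few UMIs are given as counts or left out. Of each list described it names genes among the 2 highest and 2 lowest ratios with 50 or more UMIs, along with Ifng, Jak1, Jak2 and Socs1. Another 2 genes are not reported here. The 9 alternative settings chosen at the start changed the cell filters, doublet removal, resolution, naming, scaling, thinning and UMI minimum, and leaving out the highest cells was added after seeing the data. Promoters came from RefSeq: 6 of 7 genes were listed, and for 5 of them the bases after the start were found in a GENCODE transcript. Ratios and intervals were tested on simulated Poisson counts only. These lack the uneven spread over cells seen for the ligands, so the test does not bear on it. Clustering used Scanpy 1.11.5 with leidenalg 0.10.2 on igraph 0.11.9, intervals SciPy 1.17.1, and figures matplotlib 3.10.9, under Python 3.11.15 with pandas 2.3.3 and NumPy 2.4.6.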

Additional observations from a re-analysis of the deposited data

Results flagged for a closer look

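Some genes were past 2-fold in opposite directions in different classes under the same contrast. The difference between classes was not tested, as each group had 1 library.

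Cxcl10 at day 4 had log2 ratios of 2.63 in conventional dendritic-like and 1.81 in endothelial-like cells, and of -2.45 in stellate-like cells. Without the 5 highest cells of each library the stellate-like ratio was -0.21, no longer past 2-fold, and the dendritic-like one set 3 UMIs against 0. Cxcl9 at day 21 had a ratio of 1.60 in Kupffer-like cells, and of -1.34 in conventional dendritic-like and -1.12 in endothelial-like cells. Without those cells the Kupffer-like ratio was -2.51 (0 UMIs against 6) and the dendritic-like one 3.31 (9 UMIs against 0), so both signs turned, while the endothelial-like one was -1.72. Irf1 at day 21 had ratios of 1.23 in Kupffer-like cells, 1.08 in stellate-like cells and 1.002 in cluster 10, and of -1.62 in neutrophil-like cells. The last was -0.75 relative to the median gene. Within cluster 3, which held all neutrophil-like control cells, it was -0.62 (-1.41 to 0.42), not past 2-fold.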

How the results depend on the processing

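No paired analysis was possible because each group had 1 library and the labels carry no replicate numbers. Over 85 ratios of the measured genes, 765 of 866 values under alternatives kept the sign. Of the ratios past 2-fold, 3 changed sign, and the cause was not tested. Cxcl9 in Kupffer-like cells at day 21 was -0.61 when thinned, -1.10 as a mean over cells and -2.51 (-2.505) without the 5 highest cells, where 0 UMIs remained at day 21. Cxcl9 in conventional dendritic-like cells at day 21 was 1.28 at resolution 2, 0.42 by each cell's own markers, and 0.43 (0.435) and 3.31 without the 1 and 5 highest cells, the last with 0 UMIs left in the control. Cxcr3 in cluster 19 at day 4 was -1.78 when thinned. In endothelial-like cells Cxcl9 was 0.46 (0.455) at day 4 when thinned, and at day 21 -1.63 with the stricter filter, -0.67 when thinned and -1.72 without the 5 highest cells. Cxcl10 there was 1.49 at day 4 when thinned, 1.58 as a mean over cells, and 1.52 and 1.24 without the 1 and 5 highest cells. At day 21 it was 0.53 with the stricter filter and 0.60 without the 5 highest. Ifngr1 in Kupffer-like cells at day 21 was -0.10 as a mean over cells.

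The share of all genes past 2-fold moved by over 1.5 times in 13 of 14 comparisons with a minimum of 100 UMIs and in 12 with none. Few cells and UMIs limit the ligand values: the 5 highest cells held 86.25% of stellate-like Cxcl10 UMIs in the control and all dendritic-like Cxcl9 UMIs there, against 20.1% of endothelial-like and 24.4% of cluster 1 Cxcl9 UMIs.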
